A study of Mus musculus with 4 samples.

Results

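The genes described here are 9 neuropeptide precursors of mouse cortex and striatum, of 33696 gene features measured: Cck, Sst, Vip, Npy, Tac1, Penk, Pdyn, Crh and Adcyap1. They were chosen by their measured values, that is, by their unique molecular identifiers (UMIs, 1 per captured transcript) in the neuron subtypes, regions and libraries of these data. Their levels are therefore a description. Single nuclei had been isolated at 21 days post-injury (dpi) from mice with a photothrombotic (PT) injury, in which light that excites a dye in the blood closes vessels in a small area of cortex. Dura, lesion and the cortex around it were taken apart and handled separately. Nuclei of lesion and parenchyma carried separate tags and were mixed at 75% and 25%. The mice labelled Cxcl12-cKO carried Col1a2(creER) and a floxed Cxcl12, the mice labelled control were wild-type (WT), and the study used tamoxifen to induce the Cre, which Col1a2 drives in fibroblasts and not in neurons. Each genotype was 1 male and 1 female mouse pooled into 1 gene expression library and 1 tag library, 4 samples in all.

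With 1 library per genotype no test between genotypes was possible, and none is given. Levels are UMIs of the gene per 1000000 UMIs of the same nuclei (CPM) with exact Poisson 95% intervals, and ratios carry exact binomial 95% intervals. These intervals cover counting error only and not the spread between mice, so values are also given for each of the 4 mice, told apart within a library by the expression of sex-linked genes. In lesional fibroblast-like nuclei Cxcl12 went against the labels, with 1513 UMIs (106 CPM) in the library labelled control and 3161 UMIs (215 CPM) in that labelled Cxcl12-cKO, at a log2 ratio of 1.02 (0.94 to 1.11). The cause of this was not tested, and genotype names are therefore given as the labels of the libraries throughout.

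Neuropeptides are cut from precursor proteins by processing enzymes, stored in dense-core vesicles and released to act on G protein-coupled receptors. In cortex, Sst, Vip, Npy, Crh and part of Cck mark classes of inhibitory interneuron and are used to name them, whereas Cck and Adcyap1 are also transcribed in excitatory neurons. In striatum, projection neurons with the dopamine receptor Drd1 carry Tac1 and Pdyn, and those with Drd2 carry Penk.

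Transcription of several of these genes responds to cyclic AMP through the CRE, the palindrome TGACGTCA bound by CREB. The windows before the transcription start are shown because the CRE of Sst is the textbook example of this element. RefSeq promoter windows of build GRCm38.p6 were found for 7 of the 9 genes, with none for Penk or Crh. The 250 bases upstream of the start were searched on both strands for TGACGTCA and for its core TGACG, which lies within it. TGACGTCA was found in 508 of 32851 windows (1.55%) and TGACG in 5836 windows (17.8%). Of the 7 genes, 1 held TGACGTCA (Sst) and 5 held TGACG, whereas Npy and Pdyn held neither in the windows searched. The 100 bases before the start are printed 5′ to 3′ on the strand of the gene for these 5, with the match in capitals. Sst lies at chr16:23890845-23890944 (minus strand), and its TGACGTCA starts 48 bases before the start. Cck lies at chr9:121495695-121495794 (minus strand), with the core on the opposite strand 47 bases before the start. Vip lies at chr10:5639118-5639217 (plus strand), with the core 79 bases before the start. Tac1 lies at chr6:7554961-7555060 (plus strand), with the core on the opposite strand 43 bases before the start and a further match 197 bases before it, outside the stretch printed. Adcyap1 lies at chr17:93198917-93199016 (plus strand), with the core 91 bases before the start.
Sst: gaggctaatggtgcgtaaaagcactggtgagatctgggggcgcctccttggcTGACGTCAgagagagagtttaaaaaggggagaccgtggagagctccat
Cck: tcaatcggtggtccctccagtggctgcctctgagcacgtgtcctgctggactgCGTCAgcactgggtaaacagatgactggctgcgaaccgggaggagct
Vip: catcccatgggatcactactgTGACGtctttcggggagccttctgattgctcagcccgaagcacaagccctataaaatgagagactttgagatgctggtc
Tac1: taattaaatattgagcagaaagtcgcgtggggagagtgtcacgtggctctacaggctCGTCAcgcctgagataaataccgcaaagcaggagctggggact
Adcyap1: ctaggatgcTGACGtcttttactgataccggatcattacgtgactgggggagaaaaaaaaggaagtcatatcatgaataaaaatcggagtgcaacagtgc
A match is a run of letters in the window and no measurement of binding.

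Of 23489 barcodes, 21743 nuclei were kept, of which 5018 were excitatory-like, 1014 inhibitory-like and 298 striatal-like. Median depth was 15915 and 16648 UMIs per nucleus in the parenchyma of the control-labelled and cKO-labelled libraries, and 2962 and 2975 in their lesions. Neurons were clustered without the 9 genes and named from other markers, so that, for example, Sst-like nuclei were named without Sst. Clusters whose markers gave no name are called by their leading gene, and 19 subtypes had at least 50 parenchymal nuclei. Striatal-like nuclei were present although the labels name cortical tissue, and the inhibitory-like class held a Prima1-led cluster of 135 nuclei with Chat, known from cholinergic neurons, among its leading genes. The 2 libraries shared 47 barcodes, and the regions of a library shared none. Nuclei with UMIs specific to both sexes, which include doublets, were 9.98% and 14.3% of the parenchymal nuclei of the control-labelled and cKO-labelled libraries. In the kept nuclei most UMIs of every gene lay in neurons. Penk had the lowest neuronal share (73.5% of 1315 UMIs) and Crh the highest (98.1% of 160 UMIs).

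Sst encodes somatostatin, an inhibitory peptide of dendrite-targeting interneurons. In Sst-like nuclei of the parenchyma it reached 349 CPM (328 to 371), from 1015 UMIs over both libraries. A UMI of Sst was seen in 79.7% of these nuclei at a median depth of 15628 UMIs, and in 37.9% after each nucleus was thinned to 2000 UMIs. Excitatory-like nuclei, which should lack it, had 1.00 CPM, with a UMI in 1.82% of nuclei at a median depth of 17904 and in 0.26% after thinning. Thinning left out 66 of the 4278 excitatory-like nuclei for lower depth and 0 of the 182 Sst-like nuclei. The next highest subtype was the inhibitory-like cluster led by Prima1 (83.6 CPM, 71.2 to 97.5), which also had Slc5a7 and Isl1 among its leading genes and in which 18.3% of nuclei held a UMI of Sst. So Sst was spread over most Sst-like nuclei but lay in a minority of the Prima1-led ones.

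Vip encodes vasoactive intestinal peptide, carried by interneurons that mainly inhibit other interneurons. Of its 983 parenchymal UMIs, 796 (81.0%) lay in Vip-like nuclei. There it stood at 1007 CPM (938 to 1079), with a UMI in 85.5% of nuclei and in 71.1% after thinning, at a median depth of 9637.5 UMIs. Sncg-like nuclei, of which there were 41, had 252 CPM, and 124 of their 159 UMIs lay in 5 nuclei. Excitatory-like nuclei had 0.30 CPM (0.54% with a UMI, 0.09% after thinning).

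Npy encodes neuropeptide Y, an inhibitory peptide of several interneuron classes. Unlike Sst and Vip it had no single subtype. It was highest in Lamp5-like nuclei (175 CPM, 152 to 201), which include neurogliaform cells, followed by Sst-like nuclei (78.1 CPM, 68.3 to 89.0), Sncg-like nuclei (77.8 CPM) and Prima1-led nuclei (68.5 CPM). The interval of Lamp5-like nuclei lay above that of Sst-like nuclei, whereas the levels of the next 3 were close. A UMI was seen in 55.1% of Lamp5-like and 39.6% of Sst-like nuclei, and in 15.1% and 9.34% after thinning, against 1.43% of excitatory-like nuclei before thinning. The median depth of Lamp5-like nuclei was 12410 UMIs, and 3 of 89 were left out of thinning. Pvalb-like nuclei, of basket and chandelier cells, had 10.6 CPM.

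Crh encodes corticotropin-releasing hormone, which starts the hypothalamic stress response and is also made in cortical interneurons. It was highest in Vip-like nuclei (55.6 CPM, 40.4 to 74.7, from 44 UMIs). A UMI was seen in 30.3% of these nuclei and in 5.26% after thinning. Among subtypes of at least 50 nuclei, Sst-like nuclei followed at 11.01 CPM (7.53 to 15.5, from 32 UMIs), and the intervals did not overlap. Excitatory-like nuclei had 0.65 CPM and a UMI in 0.72% of nuclei.

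Cck encodes cholecystokinin, a peptide of both excitatory neurons and a class of basket cells. In contrast to the interneuron peptides, 2447 of its 2740 parenchymal UMIs (89.3%) lay in excitatory-like nuclei, at 31.0 CPM. Among subtypes of at least 50 nuclei the Lef1-led excitatory cluster had 58.1 CPM (49.1 to 68.3) and L6 IT/Car3-like nuclei (intratelencephalic neurons of layer 6) had 55.5 CPM (50.6 to 60.7). These values could not be told apart by their intervals. L2/3 IT-like nuclei followed at 42.8 CPM (39.7 to 46.1), L5 IT-like at 38.9 CPM, L4/5 IT-like at 31.3 CPM and L5 ET-like (extratelencephalic) at 22.2 CPM. A UMI of Cck was seen in 53.9% of Lef1-led, 60.7% of L6 IT/Car3-like and 54.3% of L2/3 IT-like nuclei, against 3.67% of Drd1-like nuclei, which had 2.32 CPM. The order changed after thinning, with 7.19% of Lef1-led and 13.6% of L6 IT/Car3-like nuclei. The 41 Sncg-like nuclei, which include the Cck basket cells, had 241 CPM (204 to 283), the highest level of Cck in any named subtype.

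Adcyap1 encodes PACAP, a peptide related to VIP that raises cyclic AMP. It was the only one of the 9 genes that was nearly absent from inhibitory-like nuclei, with 283 of its 284 parenchymal UMIs in excitatory-like and 1 in inhibitory-like nuclei. Its levels differed among the excitatory subtypes. L5 ET-like nuclei had 7.32 CPM (5.04 to 10.3, from 33 UMIs), L4/5 IT-like nuclei 5.97 CPM (4.79 to 7.35, from 88 UMIs) and the Ndst4-led cluster 5.84 CPM. These 3 did not differ beyond their intervals, and L2/3 IT-like nuclei, at 3.59 CPM (2.73 to 4.63), lay below the interval of L4/5 IT-like nuclei. L6 IT/Car3-like nuclei had 1.97 CPM (1.15 to 3.16) and L6 CT-like (corticothalamic) nuclei 0.31 CPM (0.06 to 0.91), from 3 UMIs. The Eya2-led cluster had 28.3 CPM, but its 6 UMIs lay in 1 of 11 nuclei. A UMI was seen in 9.36% of L4/5 IT-like nuclei and 0.125% of inhibitory-like nuclei.

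Tac1 encodes substance P and neurokinin A, the tachykinins of the direct striatal pathway. It reached 93.8 CPM (79.9 to 109) in Drd1-like striatal nuclei, with a UMI in 63.3% of nuclei (median depth 14793) and in 14.7% after thinning. The Ankfn1-led striatal cluster, with 45 nuclei, had 112 CPM, and Drd2-like nuclei had 25.1 CPM, with a UMI in 9.76% of nuclei. Among inhibitory-like nuclei the Pvalb-like ones were highest at 31.4 CPM (25.6 to 38.1), with a UMI in 27.9% of nuclei. Excitatory-like nuclei had 0.49 CPM and a UMI in 0.77% of nuclei.

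Penk encodes proenkephalin, the opioid precursor of the indirect striatal pathway. Drd2-like nuclei had 320 CPM (288 to 354), with a UMI in 80.5% of nuclei (median depth 13977.5) and in 46.3% after thinning. They held 369 UMIs, 39.5% of the 934 in the parenchyma. Vip-like interneurons had 63.2 CPM (46.9 to 83.4), with a UMI in 38.2% of nuclei. In Drd1-like nuclei (35.9 CPM) 50 of 62 UMIs lay in 5 nuclei. In the 190 Pvalb-like nuclei no UMI of Penk was seen, which allows up to 1.58% of nuclei with a UMI.

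Pdyn encodes prodynorphin, the precursor of the opioid peptides acting on the kappa receptor. It was highest in Drd1-like nuclei (30.7 CPM, 23.0 to 40.1, from 53 UMIs) and followed in Sst-like interneurons (19.6 CPM, 14.9 to 25.4, from 57 UMIs), with intervals that overlapped. A UMI was seen in 24.8% and 14.8% of these nuclei, against 0.96% of excitatory-like nuclei, and in 0.92% of Drd1-like nuclei after thinning. Among subtypes of at least 50 nuclei Tac1 and Pdyn thus shared their highest subtype, which differed from that of Penk.

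**Figure D1:**
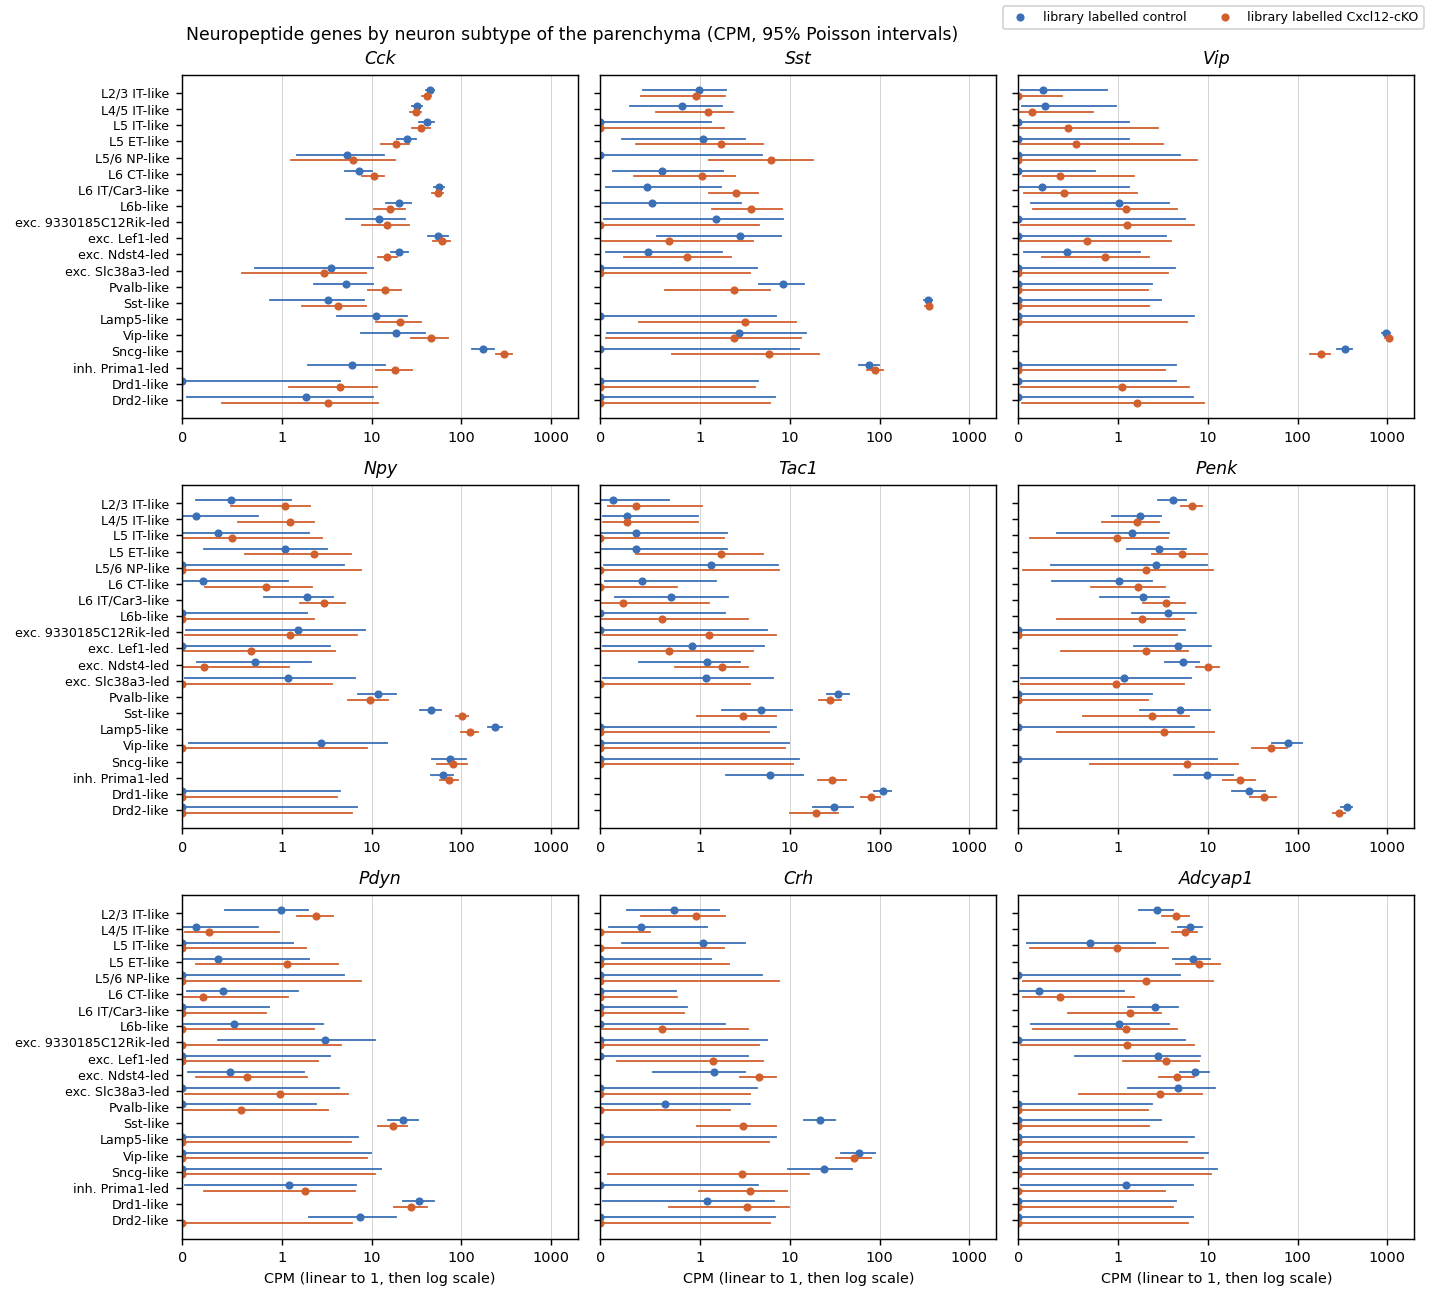
Level of each of the 9 genes (CPM, on an axis linear to 1 and logarithmic above) in the neuron subtypes of the parenchyma with at least 50 nuclei and in Sncg-like nuclei, with points for the control-labelled library and the cKO-labelled library and bars for exact Poisson 95% intervals. Vip was highest in Vip-like nuclei (1007 CPM over both libraries), Sst in Sst-like nuclei (349 CPM), Penk in Drd2-like nuclei (320 CPM), and Cck was spread over the excitatory subtypes.

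Which peptides share a nucleus was counted for the 36 pairs of genes in excitatory-like, inhibitory-like and striatal-like nuclei of the parenchyma, beside the product of the single shares. Those with at least 5 nuclei at 2000 UMIs and at least 2 times that product are described first. Sst and Npy were seen together in 84 of 800 inhibitory-like nuclei (10.5%, 8.46 to 12.8), where the product of their shares was 5.35%. Vip and Crh were seen together in 24 inhibitory-like nuclei, 5.59 times the product, and Vip and Penk in 24, 3.20 times the product. In the striatal-like class Tac1 and Pdyn met in 24 of 236 nuclei where 15.1 would follow from the product. At equal depth the ratios were 2.59 for Sst and Npy, 6.98 for Vip and Crh, 4.65 for Vip and Penk, and 3.75 for Tac1 and Pdyn. They rested on 18, 6, 7 and 5 nuclei with both. Thinning for the pairs was a random draw of its own, separate from that of the shares by subtype given above. In the draw for the pairs 9 striatal-like nuclei held a UMI of Pdyn. Such small counts can differ between draws, and how much they vary was not tested. Nuclei differ in subtype within a class, so a ratio above 1 can come from a shared subtype.

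The genes of different subtypes met less often than the product. Sst and Vip were seen together in 3 inhibitory-like nuclei where the product gave 18.4, and Vip and Npy in 5 where it gave 17.6. The direct and indirect striatal peptides Tac1 and Penk met in 20 striatal-like nuclei against 43.2, and Penk and Pdyn in 5 against 14.8. Sst and Pdyn were together in 26 inhibitory-like nuclei, 3.06 times the product, but only 4 of these remained after thinning. In excitatory-like nuclei Cck and Adcyap1 met in 98 nuclei (2.29%), 1.26 times the product.

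**Figure D2:**
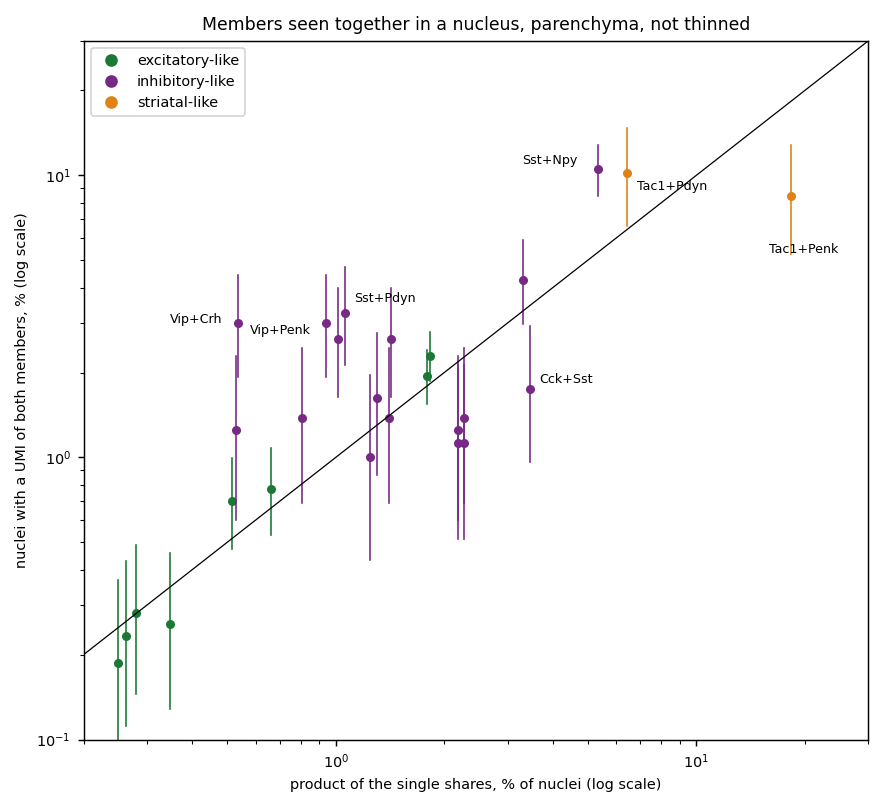
Share of nuclei with a UMI of both genes of a pair against the product of the single shares (percent, log axes), without thinning. Of the 36 pairs in each of 3 neuron classes of the parenchyma, those seen together in at least 8 nuclei are drawn. Pairs that met in fewer nuclei, such as Sst with Vip and Penk with Pdyn, are not shown. Sst with Npy lies above the diagonal at 10.5% against 5.35%, and Tac1 with Penk lies below it, at 0.46 times the product.

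The genes whose levels followed each peptide most closely were ranked by Pearson's r of log2(CPM + 1) over 38 points, the 19 subtypes in each of 2 libraries, among 13624 genes. The points share libraries and nuclei depth, so r is a description. For Vip the highest was Cp (0.89), which encodes ceruloplasmin, followed by Nbea (0.80) and Uchl3 (0.78). For Npy it was Lhx6 (0.87), a transcription factor of interneurons from the medial ganglionic eminence, followed by Tra2a (0.84) and Sfta3-ps (0.83). For Sst it was Sox6 (0.80), a transcription factor of the same lineage, followed by Abtb2 (0.79) and Crhbp (0.77), which encodes the binding protein of the Crh peptide. Crh itself was nearest to Npas1 (0.79), Vip (0.76) and Uchl3 (0.75).

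The striatal peptides had other neighbours. Tac1 was nearest to Gpr149 (0.81), Rarb (0.81) and Mme (0.80), where Mme encodes neprilysin, an enzyme that degrades tachykinins and enkephalins, and Rarb was itself a marker used to name striatal-like nuclei. Penk was nearest to Stk32a (0.82), A830012C17Rik (0.81) and Gm44593 (0.80), and Pdyn to Sh2d5 (0.74), Stk32a (0.69) and 4930567K20Rik (0.65). Cck was nearest to Sh3bp5 (0.76), Tgfb1i1 (0.74) and Zfta (0.73), and Adcyap1 to Tafa1 (0.81), Neurod1 (0.80) and Ccdc3 (0.80), of which Neurod1 is a transcription factor of excitatory neurons. Among the 9 genes, r was 0.67 for Sst and Npy, 0.60 for Tac1 and Pdyn, and -0.60 for Cck and Tac1.

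Next, the parenchyma of the 2 libraries was compared by subtype. A difference was called where the level differed at least 2-fold, the interval left out 0 and the sums held at least 20 UMIs together. Of 171 pairs of a gene and a subtype, 43 held at least 20 UMIs. In 7 the level was higher in the cKO-labelled library, against 1.21% of all 191516 pairs of any gene and subtype tested, and in 1 it was lower, against 1.1%. The median log2 ratio of the 43 was 0.03, with 22 above 0, and the median over all genes tested in Sst-like nuclei was -0.01. The peptides as a group were thus not shifted one way, and the 8 calls lay in 5 subtypes. Both mice labelled Cxcl12-cKO lay above both control mice in 10 of the 43 (15.8% of all pairs) and below them in 8 (16.5%).

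Both peptides called in Sst-like nuclei are secondary there. Npy had 57 UMIs (46.0 CPM) in the control-labelled library and 170 UMIs (102 CPM) in the cKO-labelled library, a log2 ratio of 1.14 (0.71 to 1.61). The female and male control mice had 31.7 and 60.7 CPM, and the female and male mice labelled Cxcl12-cKO had 117 and 79.9 CPM, so the mice did not overlap. Within the male mice alone the log2 ratio was 0.38 (-0.31 to 1.14), and the call was lost. It was lost too with all barcodes kept (0.64, 0.31 to 0.99) and with finer neuron clusters (0.56, 0.22 to 0.91). A UMI of Npy was seen in 32.2% and 46.3% of Sst-like nuclei at median depths of 12517 and 16994, and after thinning in 8.0% and 10.5%. In the cKO-labelled library 78 of the 170 UMIs lay in 5 nuclei, with 40 in 1 nucleus, and without the 5 nuclei with the most UMIs the log2 ratio was 0.99. Npy was higher in both subclusters of Sst-like nuclei, with 35.1 and 82.8 CPM in one and 65.5 and 128 CPM in the other.

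Crh fell in the same nuclei, from 27 UMIs (21.8 CPM) in the control-labelled library to 5 UMIs (3.0002 CPM), a log2 ratio of -2.75 (-4.59 to -1.46). The mice had 21.7 and 7.004 CPM (control female and male) and 5.07 and 0 CPM (labelled Cxcl12-cKO). Both control mice lay below the summed 21.8 CPM, so nuclei left out of the values per mouse stood higher. Nuclei with UMIs of both sexes were 14.9% of these nuclei in the control-labelled and 12.6% in the cKO-labelled library, and their part in the difference was not tested. In the control-labelled library 22 of the 27 UMIs lay in 5 nuclei, so the difference rests on few cells: 10 of 87 nuclei against 4 of 95 had a UMI. Sst itself was close in both, with 428 UMIs (345 CPM) and 587 UMIs (352 CPM) and a log2 ratio of 0.03 (-0.15 to 0.21). Here the sexes differed more than the libraries, with 436 and 423 CPM in the female mice and 264 and 245 CPM in the male mice. Pdyn in Sst-like nuclei had 22.6 and 17.4 CPM (log2 ratio -0.38).

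In Lamp5-like nuclei, the other main site of Npy, the ratio had the opposite sign. There were 125 UMIs (236 CPM) in the control-labelled library and 77 UMIs (124 CPM) in the cKO-labelled library, a log2 ratio of -0.93 (-1.36 to -0.51), just inside 2-fold. The control mice had 297 and 173 CPM and the cKO-labelled mice 119.8 and 79.4 CPM, from 12 to 23 nuclei a mouse. Nuclei with UMIs of both sexes were 25.0% of Lamp5-like nuclei in the cKO-labelled library and 2.4% in the control-labelled library, and their part in the difference was not tested. Vip in Vip-like nuclei was close in both, with 974 and 1035 CPM and a log2 ratio of 0.09 (-0.12 to 0.29). Crh in Vip-like nuclei had 22 UMIs in each library (59.2 and 52.5 CPM) and was not called.

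**Figure D3:**
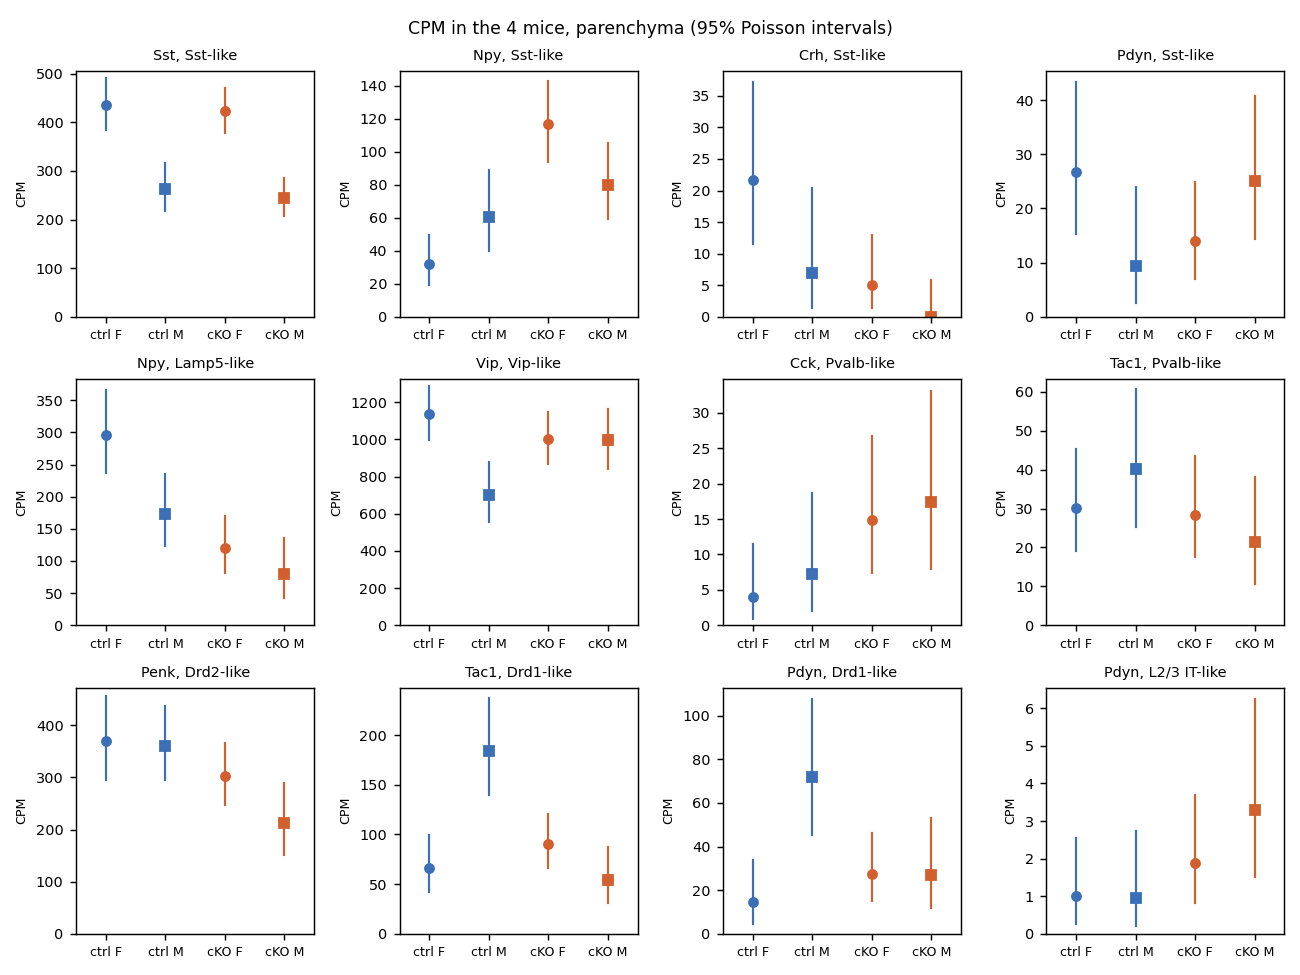
Levels (CPM) of neuropeptide genes in each of the 4 mice of the parenchyma, shown by sex for the control-labelled and cKO-labelled libraries with exact Poisson 95% intervals. In Sst-like nuclei the Npy values of the mice labelled Cxcl12-cKO (117 and 79.9 CPM) lie above those of the control mice (31.7 and 60.7 CPM), and in Lamp5-like nuclei they lie below (119.8 and 79.4 against 297 and 173 CPM).

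Cck was called in 2 inhibitory-like subtypes. In Pvalb-like nuclei it had 8 UMIs (5.24 CPM) in the control-labelled library and 24 UMIs (14.2 CPM) in the cKO-labelled library, a log2 ratio of 1.38 (0.24 to 2.80). The control mice had 3.93 and 7.30 CPM and the cKO-labelled mice 14.9 and 17.5 CPM, without overlap. Nuclei with UMIs of both sexes were 14.3% of Pvalb-like nuclei in the control-labelled and 21.2% in the cKO-labelled library. The values per mouse leave them out, and their part in the summed difference was not tested. In Prima1-led nuclei Cck had 5 and 20 UMIs (6.07 and 18.1 CPM), a log2 ratio of 1.48 (0.12 to 3.35). Summed over inhibitory-like nuclei, Cck had 15.4 and 29.5 CPM, a log2 ratio of 0.93 (0.55 to 1.33), with 13.3 and 19.9 CPM in the control mice and 32.2 and 25.0 CPM in the mice labelled Cxcl12-cKO. In excitatory-like nuclei, where most of its UMIs lay, it had 31.8 and 30.2 CPM, a log2 ratio of -0.08. The ratio was -0.13 in L2/3 IT-like, -0.05 in L4/5 IT-like and -0.07 in L6 IT/Car3-like nuclei.

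Prima1-led nuclei held 3 of the 8 calls. Beside Cck, Tac1 had 5 and 33 UMIs (6.07 and 29.9 CPM; log2 ratio 2.19, 0.94 to 4.02) and Penk had 8 and 25 UMIs (9.71 and 22.7 CPM; log2 ratio 1.17, 0.03 to 2.58). The mice overlapped for both genes. Tac1 was at 27.0 CPM in the female and 0 in the male mouse labelled Cxcl12-cKO, against 0 and 14.9 CPM in the control mice. Both mice labelled Cxcl12-cKO lay below the summed 29.9 CPM. Nuclei left out of the values per mouse, with UMIs of both sexes or neither, thus stood higher, and their part in this call was not tested. Thus the Tac1 values of these nuclei varied as much between mice of a library as between libraries.

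The other 2 calls were in excitatory subtypes and rested on few UMIs. Pdyn in L2/3 IT-like nuclei had 8 and 20 UMIs (0.99 and 2.39 CPM), a log2 ratio of 1.22 (0.03 to 2.67). The control mice had 1.00 and 0.94 CPM and the cKO-labelled mice 1.87 and 3.29 CPM. Crh in the Ndst4-led cluster had 6 and 21 UMIs (1.45 and 4.56 CPM), a log2 ratio of 1.57 (0.30 to 3.25), and the female mouse labelled Cxcl12-cKO alone was high (7.41 CPM against 0.56 CPM in the male). Penk in L2/3 IT-like nuclei had 33 and 56 UMIs (4.08 and 6.70 CPM), for which the log2 ratio was 0.71 (0.07 to 1.38), short of 2-fold. Adcyap1 was not called in any subtype, with log2 ratios of 0.25 in L5 ET-like, -0.21 in L4/5 IT-like and 0.69 in L2/3 IT-like nuclei.

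In Drd1-like and Drd2-like nuclei of the parenchyma no peptide was called between the libraries. Penk in Drd2-like nuclei had 192 UMIs (353 CPM) in the control-labelled library and 177 UMIs (290 CPM) in the cKO-labelled library, a log2 ratio of -0.28 (-0.59 to 0.02). The control mice had 369 and 360.4 CPM and the mice labelled Cxcl12-cKO 302 and 212 CPM. Tac1 in Drd1-like nuclei had 109 and 79.9 CPM (log2 ratio -0.45), and the mice ranged from 66.4 to 184 CPM in the control-labelled library. Pdyn in Drd1-like nuclei had 33.9 and 27.7 CPM (log2 ratio -0.29), with 14.4 and 71.8 CPM in the control mice. For Tac1 and Pdyn the control mice thus lay farther apart than the libraries. Tac1 in Pvalb-like nuclei had 34.7 and 28.4 CPM (log2 ratio -0.29).

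When subtypes were summed to the 3 neuron classes, 20 of 27 pairs of a gene and a class were tested. None was higher in the cKO-labelled library (1.1% of all genes and classes) and 1 lower (0.704%). The call was Crh in inhibitory-like nuclei, with 57 UMIs (10.9 CPM) and 33 UMIs (5.20 CPM) and a log2 ratio of -1.05 (-1.73 to -0.42), and the mice overlapped. The call was lost without nuclei holding UMIs of both sexes (-0.62, -1.33 to 0.06), with all barcodes kept (-0.9994), with nuclei weighted alike (-0.92) and in the female mice alone (-0.90). The class value includes the Sst-like nuclei described above.

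**Figure D4:**
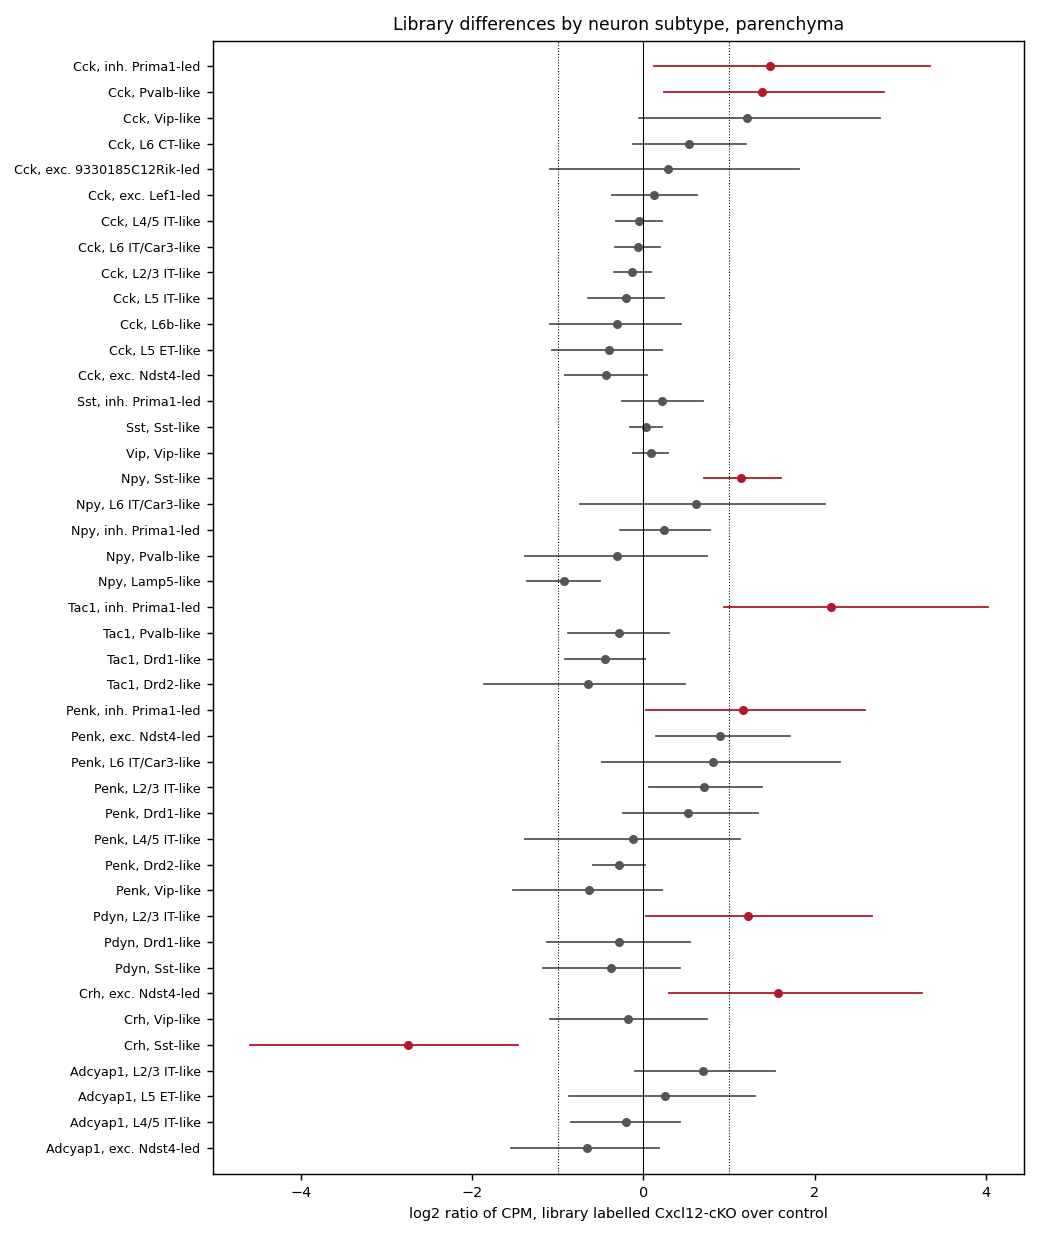
Log2 ratio of the level in the cKO-labelled library over that in the control-labelled library for the 43 tested pairs of a gene and a parenchymal subtype, with exact binomial 95% intervals. Most intervals include 0, and the 8 called pairs include Npy in Sst-like nuclei (1.14) and Crh in Sst-like nuclei (-2.75).

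Neurons also occurred among the nuclei tagged as lesion, which allowed the same subtype to be compared between regions of a library. The lesion over parenchyma ratio was tested for 30 of 144 pairs in the control-labelled library. None was called higher (1.85% of all genes and subtypes) and 6 were lower (7.01%), with a median log2 ratio of -0.80 and 4 of the 30 above 0. In the cKO-labelled library 29 pairs were tested, of which 1 was higher (2.44%) and 5 were lower (5.5%), with a median of -0.59 and 8 of the 29 above 0. In Sst-like nuclei the median over all genes tested was -0.03 and -0.01, while most peptide ratios lay below 0 in both libraries. By class, the medians over all genes in the control-labelled library were -0.14 in excitatory-like, -0.07 in inhibitory-like and 0.08 in striatal-like nuclei. Those of the cKO-labelled library were -0.13, -0.07 and -0.10, so part of the fall was shared by other genes.

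Sst in Sst-like nuclei had the most UMIs of these pairs. In the control-labelled library it had 428 UMIs in 87 parenchymal nuclei (345 CPM) and 12 UMIs in 21 lesional nuclei (45.2 CPM), a log2 ratio of -2.88 (-3.90 to -2.11). The values of the cKO-labelled library were 587 UMIs in 95 nuclei (352 CPM) and 12 UMIs in 15 nuclei (89.5 CPM), a log2 ratio of -1.92 (-2.94 to -1.16). Sst was thus lower in the lesion of both libraries, although the ratio within the male mice labelled Cxcl12-cKO was -0.19 (-2.25 to 1.03). Median depths were 12517 and 12064 UMIs in the parenchyma and lesion of the control-labelled library, and 16994 and 9078 in the cKO-labelled library. After thinning, a UMI of Sst was seen in 28 of 87 nuclei of the parenchyma (32.2%) and 0 of 21 of the lesion in the control-labelled library, where the exact interval reaches 16.1%. In the cKO-labelled library 41 of 95 (43.2%) and 3 of 14 (21.4%) held one, with 1 lesional nucleus left out for its depth. Summed fibroblast markers in Sst-like nuclei were 39 and 34 CPM in the parenchyma and 75 and 82 CPM in the lesion, and their part in the result was not tested.

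Vip and Npy were also lower in the lesion of the control-labelled library in their highest subtypes, whereas Crh was not. Vip in Vip-like nuclei had 362 UMIs (974 CPM) in the parenchyma and 21 UMIs (346 CPM) in 8 lesional nuclei, a log2 ratio of -1.46 (-2.20 to -0.86). In the male control mouse alone it was -0.14 (-1.74 to 0.94). Of 47 Vip UMIs in inhibitory-like nuclei of the control-labelled lesion, only these 21 lay in Vip-like nuclei. A further 12, 10 and 4 lay in 1 Pvalb-like, 1 Slc47a1-led and 1 Prima1-led nucleus, and their part in the result was not tested. In the cKO-labelled library Vip in Vip-like nuclei had 1035 and 629 CPM, a log2 ratio of -0.68 (-1.54 to 0.00), from 4 lesional nuclei. Npy in Lamp5-like nuclei had 125 UMIs (236 CPM) and 8 UMIs (54.6 CPM) in the control-labelled library, a log2 ratio of -2.03 (-3.35 to -1.09), and 124 and 69.0 CPM in the cKO-labelled library (-0.74). Crh in Vip-like nuclei had 59.2 CPM (22 UMIs) in the parenchyma and 82.4 CPM (5 UMIs) in the lesion of the control-labelled library, a log2 ratio of 0.58 (-1.28 to 1.91). The values of the cKO-labelled library were 52.5 CPM (22 UMIs) and 118 CPM (3 UMIs), at 1.36 (-1.22 to 2.90), and neither was called.

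Npy in Sst-like nuclei was called in the cKO-labelled library, from 170 UMIs (102 CPM) to 5 UMIs (37.3 CPM), a log2 ratio of -1.32 (-3.09 to -0.20), which in the male mouse alone was -0.17. Tac1 in Pvalb-like nuclei of the control-labelled library had 53 UMIs (34.7 CPM) and 6 UMIs (14.01 CPM), a log2 ratio of -1.21 (-2.82 to -0.09), but in the female mouse alone it was -0.28 (-1.95 to 0.98), and the call was also lost without nuclei holding UMIs of both sexes (-1.05, -2.67 to 0.08) and with all barcodes kept (-1.01, -2.62 to 0.11). Crh in Sst-like nuclei of the same library fell from 27 UMIs (21.8 CPM) to 0, a log2 ratio of -3.56. The interval of this lesional level reaches 13.9 CPM. Sst in Prima1-led nuclei of the cKO-labelled library fell from 98 UMIs to 1 UMI in 5 nuclei, a log2 ratio of -2.08 (-7.98 to -0.15). Each of these lesional sums held 6 UMIs or fewer.

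In excitatory neurons Cck differed by less than 2-fold between regions, whereas Penk and Adcyap1 differed by more in the control-labelled library. Cck in L2/3 IT-like nuclei had 44.7 and 25.8 CPM in parenchyma and lesion of the control-labelled library, a log2 ratio of -0.78 (-1.24 to -0.37), and 40.9 and 25.3 CPM in the cKO-labelled library (-0.65). In L6 IT/Car3-like nuclei it had 56.9 and 43.1 CPM (-0.39) and 54.2 and 45.4 CPM (-0.22), and in L4/5 IT-like nuclei the log2 ratios were -0.20 and -0.06. The ratio of Cck was thus below 0 in both libraries in each of these 3 subtypes without reaching 2-fold. Penk in L2/3 IT-like nuclei of the control-labelled library had 33 UMIs and 1 UMI (4.08 and 0.49 CPM), a log2 ratio of -2.50 (-8.41 to -0.49). In the cKO-labelled library the 41 lesional L2/3 IT-like nuclei held 5 UMIs of Penk (7.90 CPM), which was not below the parenchymal level given above. Adcyap1 over excitatory-like nuclei had 148 and 8 UMIs in the control-labelled library, a log2 ratio of -1.73 (-3.05 to -0.80), and a ratio of -0.54 in the cKO-labelled library.

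Pdyn was the only gene called higher in a lesion. In Drd1-like nuclei of the cKO-labelled library it had 25 UMIs in 61 parenchymal nuclei (27.7 CPM) and 25 UMIs in 36 lesional nuclei (66.2 CPM), a log2 ratio of 1.25 (0.39 to 2.11). In the control-labelled library the 8 lesional Drd1-like nuclei held 0 UMIs, against 28 UMIs (33.9 CPM) in the parenchyma. The interval of this lesional level reaches 34.6 CPM, above the parenchymal level, and the pair was not called. Opposite to Pdyn, Penk in Drd1-like nuclei of the cKO-labelled library fell from 38 UMIs (42.2 CPM) to 0, a log2 ratio of -5.01. Penk in Drd2-like nuclei of that library fell from 177 UMIs (290 CPM) to 24 UMIs (140.4 CPM), a log2 ratio of -1.02 (-1.73 to -0.43). Tac1 in Drd1-like nuclei had 79.9 and 92.6 CPM (log2 ratio 0.22). Of the lesional Drd1-like nuclei of this library most belonged to a subcluster of 44 nuclei, 35 of them from that lesion, with Gpnmb, known from phagocytes, and Rbm47 among its leading genes, and their part in the result was not tested. Without that subcluster the log2 ratio of Pdyn was 1.78 (-4.13 to 3.84) and it was no longer called, and that of Penk in Drd1-like nuclei was -0.40 and was not called either.

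**Figure D5:**
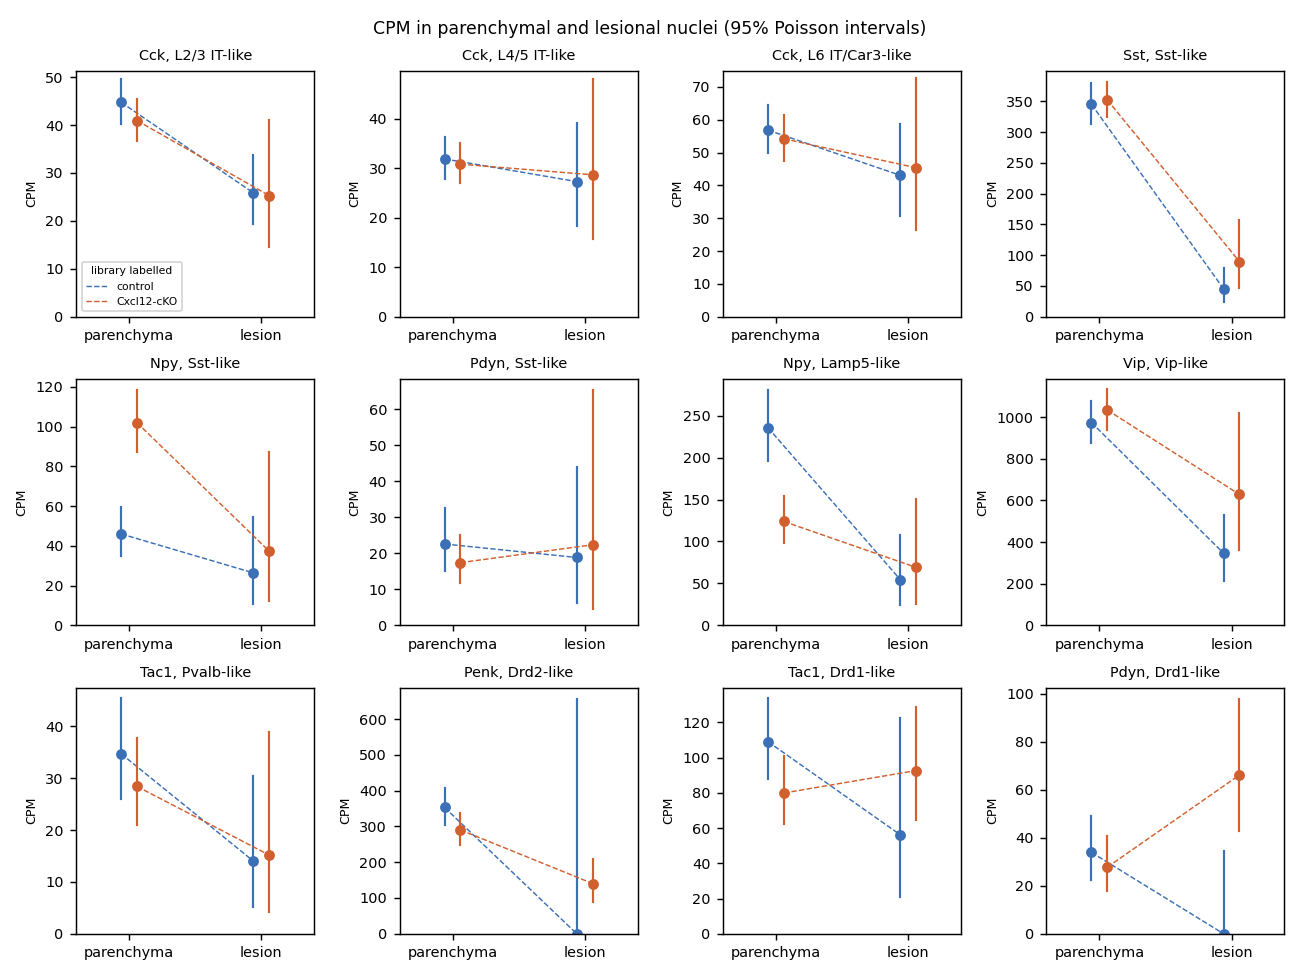
Levels (CPM) in the parenchyma and the lesion of each library for neuropeptide genes in their subtypes, with exact Poisson 95% intervals. Sst in Sst-like nuclei stands at 345 and 45.2 CPM in the control-labelled library and at 352 and 89.5 CPM in the cKO-labelled library, and Pdyn in Drd1-like nuclei of the cKO-labelled library stands at 27.7 and 66.2 CPM.

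Between the lesions of the 2 libraries 9 pairs of a gene and a subtype were tested, of which 1 was higher in the cKO-labelled library (2.42% of all genes and subtypes) and 0 were lower (2.86%). The call was Pdyn in Drd1-like nuclei, with 0 UMIs in 8 nuclei of the control-labelled lesion and 25 UMIs in 36 nuclei of the cKO-labelled one (66.2 CPM). The log2 ratio was 3.85, with an interval that starts at 0.83 and has no upper end. Of the 25 UMIs, 15 lay in 5 nuclei, and most of the 36 nuclei belonged to the lesional subcluster described above. Sst in lesional Sst-like nuclei had 45.2 and 89.5 CPM, a log2 ratio of 0.99 (-0.30 to 2.27), from 12 UMIs in each. Vip in Vip-like nuclei had 346 and 629 CPM, and Cck in L2/3 IT-like nuclei 25.8 and 25.3 CPM.

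The remaining genes of the pathway were taken from 3 lists of 16 other precursors, 22 receptors and a binding protein, and 13 processing and granule genes, 51 in all, and compared between libraries in the parenchyma by class, where 1.1% of all genes and classes were called higher and 0.704% lower. Of the processing enzymes and granule proteins all 13 were tested in each class, none was called in excitatory-like or inhibitory-like nuclei, and 1 was higher in striatal-like nuclei. Their median log2 ratios were -0.01, -0.0044 and -0.09. Of the receptors 18, 17 and 9 were tested in excitatory-like, inhibitory-like and striatal-like nuclei, with 0, 0 and 1 higher and 0, 1 and 1 lower. Of the other precursors 6, 5 and 1 were tested, with 1, 0 and 1 higher and none lower. The genes that cut and pack the peptides thus gave no call in excitatory-like or inhibitory-like nuclei.

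Cartpt, the precursor of the CART peptides, was called higher in the cKO-labelled library in excitatory-like nuclei, with 38 UMIs (0.95 CPM) and 140 UMIs (3.59 CPM), a log2 ratio of 1.90 (1.39 to 2.47). In the cKO-labelled library 46 nuclei held the 140 UMIs, with 77 in 5 nuclei, and in the control-labelled library 22 nuclei held the 38 UMIs, with 18 in 5. In striatal-like nuclei it had 1 and 33 UMIs, a log2 ratio of 4.39 (2.38 to 10.30), and 32 of the 33 UMIs lay in 5 nuclei. Chga, which encodes chromogranin A of the dense-core granule, had 26 and 83 UMIs in striatal-like nuclei (15.2 and 45.5 CPM; log2 ratio 1.57, 0.94 to 2.28), with 49 of the 83 in 5 nuclei.

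Of the receptors, Tacr1, which binds the substance P made from Tac1, was lower in striatal-like nuclei of the cKO-labelled library, with 39 UMIs (22.7 CPM) and 10 UMIs (5.48 CPM) and a log2 ratio of -2.00 (-3.22 to -1.02), and 26 of the 39 UMIs lay in 5 nuclei. The control mice had 35.3 and 18.3 CPM and the mice labelled Cxcl12-cKO 4.82 and 5.71 CPM. Tacr3, the receptor of neurokinin B, was lower in inhibitory-like nuclei (8.57 and 3.62 CPM; log2 ratio -1.23, -2.03 to -0.49), where 29 of the 45 UMIs of the control-labelled library lay in 5 nuclei. The cKO-labelled library had 23 UMIs there. Most of these UMIs, 48 over both libraries, lay in Prima1-led nuclei, at 41.2 and 12.7 CPM. Npy1r was higher in striatal-like nuclei, with 11 and 32 UMIs (log2 ratio 1.41, 0.43 to 2.59), but the mice labelled Cxcl12-cKO stood at 27.0 and 3.81 CPM. The receptors of the other peptides were not called in the classes where they were taken. Cckbr had 29.4 and 28.9 CPM, Vipr1 31.9 and 30.4 CPM, Npy1r 19.3 and 20.5 CPM, Sstr2 7.17 and 5.54 CPM, and Crhr1 32.6 and 31.0 CPM in excitatory-like nuclei. Oprk1, the kappa receptor on which the Pdyn peptides act, had 44.9 and 46.1 CPM in striatal-like nuclei. In inhibitory-like nuclei Oprd1, which binds enkephalins, had 66.1 and 61.1 CPM, Adcyap1r1 had 45.7 and 51.8 CPM, and Tacr1 had 73.4 and 50.3 CPM. For Tacr1, 219 of 385 UMIs in the control-labelled and 117 of 319 in the cKO-labelled library lay in 5 nuclei.

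Receptor and peptide were often highest in different subtypes. Cckbr was highest in L2/3 IT-like nuclei (35.99 CPM), Sstr2 in L6 IT/Car3-like nuclei (18.1 CPM), Npy1r in Vip-like nuclei (82.2 CPM) and Tacr1 in Prima1-led nuclei (294 CPM). Tacr1 in Prima1-led nuclei stood at 408 CPM in the control-labelled and 210 CPM in the cKO-labelled library. Oprk1 stood at 71.2 CPM in L6 IT/Car3-like nuclei and Crhr1 at 68.7 CPM in L4/5 IT-like nuclei. Crhbp, whose protein binds the Crh peptide, was highest in Sst-like nuclei (48.2 CPM), which followed Vip-like nuclei in the level of Crh.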

How the data were processed

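Single-nucleus RNA-seq was analysed from 2 gene expression libraries, 1 per genotype, each of nuclei pooled from 1 male and 1 female mouse. The authors prepared them with the Chromium 3′ v3.1 chemistry and deposited 4 matrices of UMI counts per gene and nucleus, 1 for each region of each library, with no normalization. Cell Ranger 9.0.0 and GRCm39 are named in the submitters' processing notes. The matrices held between 31995274 and 62749811 UMIs, the tag libraries were not used here, and 0 columns of per-sample values were left unused.

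Barcodes in the outer 2.5% by UMIs or genes, or the top 2.5% by mitochondrial share, were removed, which left nuclei with 758 to 36243 UMIs. Counts were scaled to 10000 and log-transformed, and 3000 variable genes, 30 components and 20 neighbours gave 19 Leiden clusters at resolution 0.25 (scanpy 1.11.5, leidenalg 0.10.2). Neuron classes were clustered again with 2000 genes at 0.5. The 9 genes and the pathway lists were left out of clustering and naming. Clusters were named from 29 marker lists, and the naming thresholds were set after the clusters were seen. No doublet caller was applied, and leaving out the 10% highest Scrublet scores was an alternative. The members and lists were chosen with earlier results of these data known. All 9 genes are named. Pathway genes are named where called in a class, together with the main receptor of each peptide, and likeness takes the 3 genes with the highest correlation, with 1 added to the CPM, among genes of at least 200 UMIs.

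UMIs were summed per subtype, region and library. Ratios had 0.5 added to each sum, exact intervals came from scipy 1.17.1, and a call needed 2-fold, an interval without 0 and 20 UMIs. Mice were told apart by Xist and Y-linked UMIs, and nuclei with both or neither were left out of the values per mouse. Shares were compared after thinning to 2000 UMIs. The scripts were tested on simulated data. Promoter sequences are from RefSeq on GRCm38.p6 and were not joined to coordinates of the files. Of the alternatives tried, 17 were planned and 2 added.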

Additional observations from a re-analysis of the deposited data

Results flagged for a closer look

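Npy had ratios of opposite sign in its 2 main interneuron subtypes of the parenchyma. The log2 ratio of the cKO-labelled over the control-labelled library was 1.14 in Sst-like nuclei and -0.93 in Lamp5-like nuclei. Both cKO-labelled mice lay above both control mice in the first subtype and below them in the second. The difference between the subtypes was not tested, since each genotype had 1 library.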

How the results depend on the processing

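None of the 21 called ratios between libraries or regions changed sign under the alternatives that gave a value, and of 29 ratios named without a call 12 kept their sign in all. The 21 were picked for a 2-fold difference with an interval without 0, and the alternatives largely reuse the same nuclei. Their kept sign is therefore no independent support for the calls. An alternative whose sums fell under the minimum of UMIs gave no value. Between libraries Crh in Sst-like nuclei thus had 9 values and Tac1 in Prima1-led nuclei 11, against 16 for Npy in Sst-like nuclei. The male mice, in which Tac1 in Prima1-led nuclei ran the other way, were not counted for that ratio. Npy in Lamp5-like nuclei ranged from -1.29 to -0.57. The number of calls between libraries, 8, came to 5 without nuclei holding UMIs of both sexes, 3 without the 5 nuclei with the most UMIs of each sum, 4 in the female mice, 3 in the male mice and 1 with a minimum of 50 UMIs. The split of 7 higher and 1 lower became 4 and 3 when each nucleus was assigned by its own markers, 0 and 3 in the male mice, and 9 and 0 with finer neuron clusters. Calls between regions, 12, came to 7 in the male mice and 20 without a minimum of UMIs. Pathway calls, 6, came to 11 without a minimum and 3 at a minimum of 50. Pairs seen together, 4, came to 2 in the female mice and 1 in the male ones, and to 2 and 8 when thinned to a lower and a higher depth. Between these, 11 of 16, 15 of 17, 13 of 15 and 7 of 11 alternatives stayed within 1.5 times the count. The subtype with the highest level stayed the same in all 12 settings for Sst, Vip, Npy, Penk, Pdyn and Crh, in 11 for Tac1, in 5 for Adcyap1 and in 4 for Cck. For single values, Crh in Sst-like nuclei moved from -2.75 to -1.38 with assignment by own markers, and without the 5 nuclei with the most UMIs the lesion ratios of Sst (Sst-like), Vip (Vip-like) and Penk (Drd2-like) became -3.98, -3.35 and -1.87. The cause of these moves was not tested. Subtypes of at least 20 nuclei and leaving out the lesional striatal subcluster were chosen after seeing the data, and the first gave 9 calls between libraries and 18 between regions. No paired analysis was possible because each group has 1 library and 1 replicate number, and the sex-matched values of the mice stand among the alternatives. In the lesion the number of nuclei limits the sums, with 21 Sst-like nuclei against 87 in the parenchyma of the control-labelled library.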

Other observations

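Outside neurons, Penk had the most UMIs of the 9 genes. In the 8248 lesional fibroblast-like nuclei it had 245 UMIs, at 8.45 CPM (7.42 to 9.58), with a UMI in 2.19% of nuclei at a median depth of 3079 UMIs and in 1.36% after thinning to 2000 UMIs. The control-labelled library had 9.79 CPM and the cKO-labelled library 7.15 CPM there. Lesional myeloid-like nuclei had 46 UMIs, at 4.05 CPM (2.96 to 5.40), with a UMI in 1.00% of nuclei at a median depth of 2271 UMIs and in 0.51% after thinning. In the parenchyma the 101 fibroblast-like nuclei held 23 UMIs of Penk, at 52.6 CPM (33.4 to 79.0), which was above the level of the lesional fibroblast-like nuclei. Sst in the lesional myeloid-like nuclei had 3.78 CPM, with a UMI in 1.05% of nuclei. These nuclei held 23.6% of the lesional Sst UMIs and were 25.0% of lesional nuclei. Astrocyte-like nuclei held 6.04% and were 6.44%, and fibroblast-like nuclei held 40.1% and were 51.5%. Outside neurons Sst was thus not particular to myeloid-like nuclei.

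Other precursors had their own sites among the interneurons of the parenchyma. Cort, which encodes cortistatin, a relative of somatostatin, was highest in Sst-like nuclei (28.6 CPM). Pnoc, which encodes the precursor of nociceptin, was highest in Lamp5-like nuclei (35.6 CPM), and Tac2, which encodes neurokinin B, in Vip-like nuclei (51.8 CPM).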
